A study of Homo sapiens with 2 samples.

Results

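The genes for 10 transcription factors of blood cells, RUNX1, RUNX2, RUNX3, MYB, GATA2, SPI1, CEBPA, CEBPE, TAL1 and GFI1, were followed in a map of H3K9me3 in KBM7 cells. They were named by hand for their role in blood formation, without a threshold but with earlier results of these data known. Each was found once among 35775 nuclear gene symbols. KBM7 is a leukemia cell line with a near-haploid karyotype, derived from a chronic myeloid leukemia and grown here in IMDM with 10% FCS and antibiotics and not given any other treatment in the labels. Formaldehyde-fixed chromatin was immunoprecipitated with an antibody against H3K9me3 (1 library) or with IgG (1 library). The IgG library was not analysed here, so every value below comes from 1 H3K9me3 library, with no replicate and no control. Expression was not measured, so the identity of the line could not be checked against marker genes.

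H3K9me3 is the trimethyl mark on histone H3 that HP1 proteins bind in constitutive heterochromatin, and over genes it is known from silenced clusters and repeats. The 10 factors belong to a network that turns on the blood program in stem and progenitor cells and then selects the myeloid lineages. RUNX proteins bind DNA as heterodimers with CBFB, TAL1 and GATA2 act in one complex with LMO2 and LDB1 in progenitors, and SPI1 (PU.1) with the C/EBP factors drives the monocyte and granulocyte lineages. Most of these genes are expressed in myeloid progenitors in general, whereas RUNX2 is best known from bone and RUNX3 from lymphocytes and neurons.

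Stretches before 5 start sites of 4 members are shown because they differ in CG dinucleotides and in RUNX motifs. The sequences are the 250 bases before a start in RefSeq on GRCh38.p14. This is a different build from the hg19 of the peaks, so no peak was placed on them. The peak calls below use the 5′ end of each deposited interval, which need not be a start shown here and for RUNX1 is not. RefSeq promoters were matched for 9 of the 10 members, 15 promoters in all, and SPI1 had none in the table. In the first group the capitals mark CG. RUNX1 (chr21:34888700-34888949, minus strand) held 32 of them, CEBPA (chr19:33302535-33302784, minus strand) held 41 and CEBPE (chr14:23119256-23119505, minus strand) held 2.
RUNX1: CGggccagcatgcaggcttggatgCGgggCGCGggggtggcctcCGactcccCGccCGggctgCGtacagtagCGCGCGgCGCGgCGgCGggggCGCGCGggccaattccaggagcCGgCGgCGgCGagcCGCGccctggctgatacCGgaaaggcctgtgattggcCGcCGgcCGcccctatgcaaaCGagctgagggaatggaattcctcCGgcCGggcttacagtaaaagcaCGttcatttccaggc
CEBPA: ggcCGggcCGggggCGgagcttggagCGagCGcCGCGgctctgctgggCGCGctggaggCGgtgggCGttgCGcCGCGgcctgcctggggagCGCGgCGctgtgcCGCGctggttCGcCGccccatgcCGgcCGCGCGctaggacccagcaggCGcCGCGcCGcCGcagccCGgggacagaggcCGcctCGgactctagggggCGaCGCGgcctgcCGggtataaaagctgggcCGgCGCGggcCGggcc
CEBPE: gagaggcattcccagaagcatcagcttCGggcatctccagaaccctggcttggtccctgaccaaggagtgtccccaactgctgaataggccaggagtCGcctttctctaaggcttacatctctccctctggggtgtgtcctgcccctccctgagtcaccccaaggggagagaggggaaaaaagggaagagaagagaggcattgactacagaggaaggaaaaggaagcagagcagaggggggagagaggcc

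RUNX2 is transcribed from a distal and a proximal start, and its pair of promoters contrasts most. In these the capitals mark TGTGGT or ACCACA, the RUNX motif on either strand. The first listed (chr6:45328080-45328329, plus strand) held 2 such motifs and 0 CG dinucleotides, and 41.6% of its bases were G or C. The second listed (chr6:45422025-45422274, plus strand) held 0 motifs and 34 CG dinucleotides, with 78% G or C.
RUNX2 first listed: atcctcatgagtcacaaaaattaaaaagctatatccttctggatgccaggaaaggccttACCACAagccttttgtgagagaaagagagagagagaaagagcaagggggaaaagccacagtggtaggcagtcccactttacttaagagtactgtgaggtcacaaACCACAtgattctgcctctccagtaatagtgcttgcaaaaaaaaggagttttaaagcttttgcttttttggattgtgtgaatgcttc
RUNX2 second listed: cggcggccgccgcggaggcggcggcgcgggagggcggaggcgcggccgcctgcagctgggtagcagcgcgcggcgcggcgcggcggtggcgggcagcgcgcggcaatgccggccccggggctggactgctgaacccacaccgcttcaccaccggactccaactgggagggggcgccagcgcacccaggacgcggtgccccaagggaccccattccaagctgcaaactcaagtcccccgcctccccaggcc

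The 15 member promoters had a median of 19 CG dinucleotides, against 11 over the 35116 promoters of the table, and 13 of the 15 lay above that value. CEBPE and the first listed RUNX2 promoter were the exceptions. The RUNX motif occurred in 4 of the 15, in RUNX2, RUNX3, TAL1 and GFI1, and in 11.0% of all promoters. The GATA motif AGATAA or TTATCT, searched on both strands in the same way, occurred in 1 of the 15, in TAL1, and in 9.17% of all promoters. The motifs do not overlap each other. These are matches of letters only.

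H3K9me3 was low over most of the blood factor genes. The deposited gene score, in reads per kb of the gene interval, had a median of 19.2 over the 10 members, against 43.5 over all nuclear symbols and 34.3 over the 18698 symbols matched to protein-coding genes. Of the 10 members 9 lay below the median of all symbols, as 50% of all symbols and 62.5% of protein-coding symbols do. Below the 25th percentile of all symbols, a score of 23.7, lay 7 members, against 25% of all symbols and 32.6% of protein-coding ones. RUNX1 alone lay above the median, with an interval that is longer than the gene in RefSeq.

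**Figure D1:**
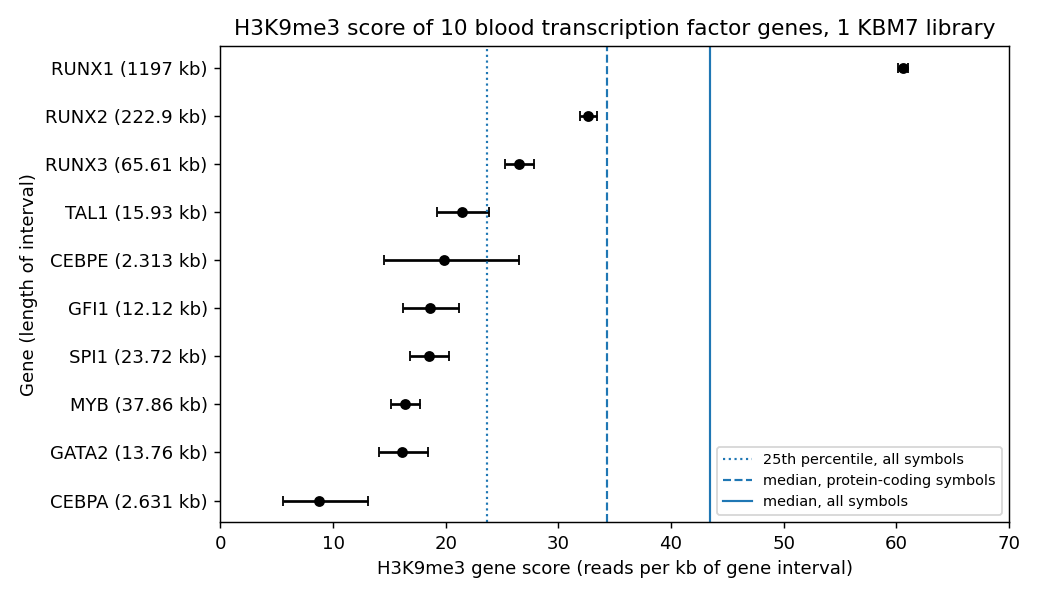
H3K9me3 gene score in reads per kb (x axis) of each of the 10 genes (y axis, with the length of its interval). Points are scores and bars exact 95% Poisson intervals, which cover counting error only; RUNX1 lies at 60.6, right of every line, and 7 genes lie left of the 25th percentile line at 23.7.

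In order, the scores ran from RUNX1 over RUNX2, RUNX3, TAL1, CEBPE, GFI1, SPI1, MYB and GATA2 down to CEBPA. The 95% Poisson intervals of neighbours in that order did not overlap between RUNX1 and RUNX2, between RUNX2 and RUNX3, between RUNX3 and TAL1, and between GATA2 and CEBPA. From TAL1 down to GATA2 each gene overlapped the next in the order, so those adjacent steps are not resolved at this depth, although the interval of TAL1 lay wholly above those of MYB and GATA2. With 1 library these intervals say nothing about biological spread.

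No member had a peak within 1 kb of its annotated start, which is the 5′ end of the deposited interval. At that place 14.2% of all symbols and 12.4% of protein-coding symbols had one. For RUNX1 this end lies outside the gene in RefSeq, and other starts of a member were not examined. A peak lay inside the gene interval for 2 of the 10 members, RUNX1 and RUNX2, against 36.8% of all symbols and 43.6% of protein-coding symbols. Peaks are found more often in long intervals, and the share depends on length. It was 19.1% for protein-coding symbols under 10 kb, 40.4% for those of 10 to 100 kb and 89% for those of 100 kb or more. Of the members, 0 of 2 under 10 kb, 0 of 6 between 10 and 100 kb and 2 of 2 of 100 kb or more held a peak. The distance from the start to the nearest peak had a median of 15884 bp over the members. It was 14104 bp over all symbols and 16132 bp over protein-coding symbols. Among the members the distance ran from 4497 bp at RUNX1 to 167827 bp at SPI1.

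By their deposited intervals, the 3 RUNX genes, which encode the alpha subunits of core binding factor, held the 3 highest scores of the group. RUNX1, required for the emergence of blood stem cells and often rearranged in leukemia, was given 72477 reads over chr21:36160098-37357047 (hg19, minus strand, 1197 kb), a score of 60.6 (95% Poisson interval 60.1 to 61.0). That is higher than in 65.3% of all symbols and in 77.4% of protein-coding symbols. The RUNX1 score averages over an interval that reaches beyond the gene in RefSeq. Of its first 300 kb from the 3′ end, 1.85% lay in peaks. RUNX2 scored 32.6 (31.9 to 33.4) on 7277 reads and RUNX3 26.5 (25.3 to 27.8) on 1741 reads.

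The RUNX1 interval held 79 peaks that covered 11.1% of it, but they were spread unevenly. The interval is longer than the gene in RefSeq: it contains MIR802, a microRNA gene that RefSeq on GRCh38.p14 places outside RUNX1, between it and SETD4. Its score therefore also counts sequence beyond that gene model, and its annotated start is the far end of this long interval. In that order of genes, at least the sequence from MIR802 (chr21:37093013 in hg19) to the annotated start lies outside RUNX1. The 5′ end of RUNX1 in RefSeq was not placed in hg19, so much more of the interval may lie outside the gene. How many of the 79 peaks, and how much of the score, belong to RUNX1 itself is therefore not known here. No start of RUNX1 in RefSeq was placed on the peaks, so their place relative to the RUNX1 promoters is not known here. The interval was divided into 12 windows of 100 kb from its 3′ end, the last of 96.95 kb. From the 3′ end, the windows held 1, 0, 4, 10, 6, 6, 3, 3, 4, 16, 15 and 11 peaks. Along chromosome 21 from its first to its last peak, 387 such windows had a median of 3 peaks, 17.8% had none and 8.79% had 15 or more. Stretches where no peak can be called were not left out of these windows. The lowest windows thus lay at the 3′ end and the 3 highest next to the annotated start, with counts between them that rose to 10 and fell again to 3 and 4 in the windows from 600 to 900 kb.

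**Figure D2:**
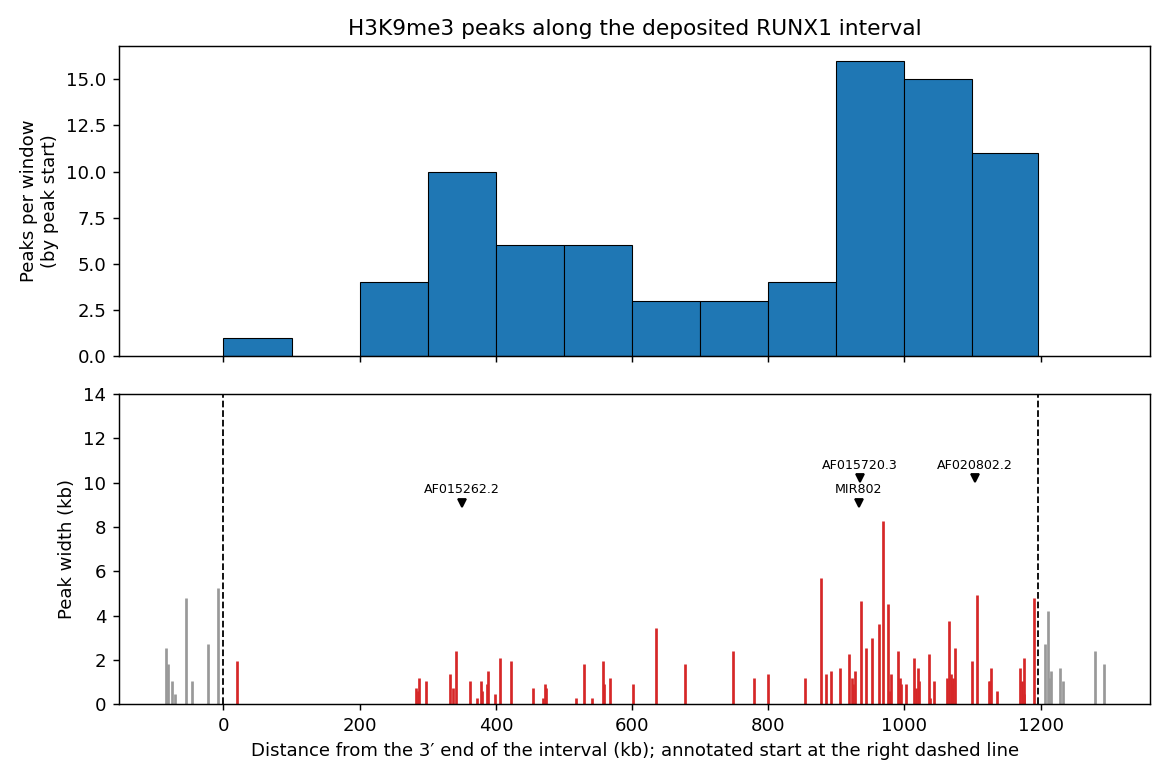
Peaks along the RUNX1 interval by distance from its 3′ end in kb (x axis), as peaks per 100 kb window (upper panel) and as the width of each peak in kb (lower panel, red inside the interval and grey in the 100 kb on each side). Dashed lines mark the ends of the interval and triangles mark nested gene intervals; between the peak near 18.6 kb and the next one, 261.6 kb held no peak, and the 3 widest peaks lay 875 kb or more from the 3′ end.

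Near the 3′ end the RUNX1 interval was almost free of peaks. Its 3′-most peak lay at chr21:36178651-36180600, 1950 bp wide and 18.6 kb from the 3′ end. The next one began at chr21:36442201-36442950, and the 261.6 kb between them, chr21:36180601-36442200, held none. The next longest gaps between peaks of the interval were 67.95 kb and 52.8 kb. The sequence just beyond the 3′ end was not free of the mark: AP000330.8, the next gene interval 2.91 kb away, scored 86.6 (83.7 to 89.6) with 20.3% of it in 2 peaks.

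Toward the annotated start of the interval, which lies beyond MIR802 and outside RUNX1 in RefSeq, the peaks were more frequent and wider. With bounds set after the data were seen, the 300 kb at the 3′ end held 5 peaks (1.67 per 100 kb, 1.85% of the sequence). The next 500 kb held 28 (5.60 per 100 kb, 6.77%), and the remaining 397 kb held 46 (11.6 per 100 kb, 23.6%). The median peak of the 3 parts was 1050, 1050 and 1425 bp wide. Chromosome 21 between its first and last peak held 4.95 peaks per 100 kb and 7.87% in peaks. The densest window, 900 to 1000 kb from the 3′ end, lay in peaks for 40.5% of its length. The widest peaks of the interval were 8250 bp at chr21:37125301-37133550, 5700 bp at chr21:37035301-37041000 and 4950 bp at chr21:37264651-37269600. The median width was 1200 bp, against 900 bp over all 126965 peaks, and 6 pairs of peaks lay end to end, so the number of peaks depends on where the caller split them.

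Gene intervals nested in RUNX1 differed in score with their place in it. AF015262.2, 349 kb from the 3′ end, scored 47.6 (39.5 to 56.8) with no peak. AF015720.3, which lies in the densest part, scored 112 (108 to 117), with 41.9% of its 19.8 kb in peaks. MIR802 in that part scored 223 (138 to 341) on 21 reads. The AF020802.1, AF020802.2, AF020802.3 and AF020802.4 intervals, 0.062 to 0.070 kb long, had 22 to 32 reads each, and scores of 333 to 485. Symbols with intervals under 1 kb had a median score of 122, so these 5 short intervals cannot be read against longer ones. The reads of all 7 nested intervals are also counted in RUNX1.

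The nearest peak to the annotated RUNX1 start, at chr21:37347751-37352550, lay 4.50 kb downstream of it and was 4800 bp wide. Upstream, the 100 kb next to the interval held 8 peaks and 16.5% in peaks, and on the 3′ side 8 peaks and 19.65%. Both flanks were thus above the interval's own 11.1%. AP000688.8, the next gene interval upstream, scored 141 (126 to 158) without a peak.

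RUNX2, the master regulator of osteoblasts, was thinly marked for its length. Its interval, chr6:45295894-45518818 (hg19, plus strand, 223 kb), held 2 peaks of 450 bp each that together covered 0.404% of it. One lay 131.9 kb downstream of the annotated start at chr6:45427801-45428250. The other lay at chr6:45514801-45515250, 3.57 kb before the 3′ end. Both are narrower than the 900 bp of the median peak. The nearest peak to the start was 21.1 kb upstream, at chr6:45273451-45274800, and this lies inside SUPT3H, a subunit gene of the SAGA complex on the other strand whose interval overlaps the start of RUNX2. SUPT3H scored 41.5 (41.0 to 42.1) with 13 peaks, above RUNX2, and part of its reads are shared with RUNX2. The nearest intervals that do not overlap RUNX2 are short, RP11-394I17.1 at 52.0 (33.6 to 76.7) on 25 reads and a U6 interval of 0.072 kb with 18 reads (148 to 395 reads per kb).

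RUNX3, a regulator of lymphocyte and neuron development, had no peak in its 65.6 kb, chr1:25226002-25291612 (hg19, minus strand), but peaks lay near both of its ends. A peak of 3300 bp at chr1:25300501-25303800 lay 8.89 kb upstream of the start. Downstream, 6 peaks lay between 6.20 and 17.3 kb beyond the 3′ end and a further one at 82.4 kb, and the 100 kb on that side held 9.9% in peaks. RUNX3 thus lay in a stretch of 80.7 kb without peaks. Its neighbours scored 23.1 (22.2 to 24.1, CLIC4) and 46.2 (44.6 to 47.8, RP4-799D16.1), one below and one above it. Within RUNX3, RP11-84D1.1 scored 25.7 (18.7 to 34.3), not apart from it, and AL023096.1, of 0.094 kb, scored 170.2 (97.3 to 276) on 16 reads.

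The progenitor factors TAL1, GATA2 and MYB had scores of 16 to 21 and no peak in the gene. TAL1, the bHLH factor of blood stem cells, was given 342 reads over chr1:47681963-47697892 (hg19, minus strand), a score of 21.5 (19.3 to 23.9). No peak lay within the 100 kb upstream, where STIL scored 12.6 (11.7 to 13.5), lower than TAL1. On the other side PDZK1IP1 scored 21.9 (18.6 to 25.5), not apart from TAL1. All 8 peaks of its surroundings lay downstream, the nearest 65.4 kb from the start. A nested antisense interval, RP1-18D14.7, scored 11.5 (8.71 to 14.9).

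GATA2, the zinc finger factor of stem cell maintenance, scored 16.1 (14.1 to 18.4) on 222 reads over chr3:128198270-128212028 (hg19, minus strand). Its start lay in a short stretch of 36.75 kb without peaks. A peak of 3750 bp at chr3:128222701-128226450 lay 10.7 kb upstream, and 4 peaks covered 9.3% of the 100 kb on that side. Downstream, a peak of 1200 bp lay 26.1 kb from the start, inside the antisense gene DNAJB8-AS1, whose score of 57.4 (52.5 to 62.7) was 3.56 times that of GATA2. The intervals of DNAJB8-AS1 and GATA2 are 7.11 kb apart. RP11-475N22.4, which overlaps the start of GATA2 and shares reads with it, scored 20.7 (18.3 to 23.3), and its Poisson interval overlapped that of GATA2. The next gene upstream, C3orf27, scored 31.1 (25.9 to 37.0).

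MYB, the factor that keeps progenitors dividing, scored 16.4 (15.1 to 17.7) on 621 reads over chr6:135502453-135540311 (hg19, plus strand). It lay in a stretch of 199.8 kb without peaks. The 4 peaks of its flanks were all upstream, between 53.8 and 98.5 kb from the start, on the side of HBS1L, and the 100 kb downstream held none. HBS1L scored 36.0 (35.1 to 37.0), apart from MYB. On the downstream side MIR548A2, of 0.097 kb, scored 155 (86.6 to 255) on 15 reads. The antisense interval MYB-AS1 within MYB scored 18.6 (10.8 to 29.8) on 17 reads, not apart from MYB at this depth.

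The factors of the granulocyte and monocyte lineages, SPI1, CEBPA, CEBPE and GFI1, had no peak in the gene either, but their surroundings differed. SPI1, the ETS factor PU.1, lay farthest from any peak. It scored 18.5 (16.8 to 20.3) on 439 reads over chr11:47376411-47400127 (hg19, minus strand). Its nearest peak was 168 kb away, a distance longer than that of 96.8% of all symbols, in a stretch of 440.1 kb without peaks, and both flanks of 100 kb held 0 peaks. Its neighbours were as low: MYBPC3 scored 18.7 (16.9 to 20.7), not apart from SPI1, and RP11-750H9.5 scored 13.4 (12.1 to 14.9).

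CEBPA, which commits progenitors to the granulocyte lineage, had the lowest score of the group. Its 23 reads over chr19:33790840-33793470 (hg19, minus strand, 2.63 kb) gave 8.74 (5.54 to 13.1), lower than in all but 3.53% of symbols. The surroundings were not low. Its start lay in a stretch of 17.7 kb without peaks, between a peak 5.88 kb upstream at chr19:33799351-33800550 and one 11.8 kb downstream. In the 100 kb on either side 7 and 3 peaks covered 9% and 10.8%. The next genes, CEBPG at 27.2 (23.9 to 30.8) and SLC7A10 at 43.5 (40.5 to 46.8), lay 71.1 and 74.1 kb away and scored 3.11 and 4.98 times as high. The CEBPA promoter shown above had more CG dinucleotides than 98.3% of promoters.

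CEBPE, the factor of late granulocyte maturation, had nearly the length of CEBPA, 2.31 kb, and scored 19.9 (14.6 to 26.5) on 46 reads over chr14:23586513-23588825 (hg19, minus strand). The Poisson intervals of the pair did not overlap. CEBPE lay at the edge of a marked region: all 11 peaks of its flanks were upstream, the nearest 5.88 kb from the start, and they covered 17.5% of that 100 kb. The downstream flank held 0. SLC7A8, an amino acid transporter gene whose interval lies 5.68 kb upstream of CEBPE, scored 79.4 (77.1 to 81.7) with 8 peaks, 3.99 times the score of CEBPE. On the other side C14orf119 scored 40.2 (35.2 to 45.8) without a peak.

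GFI1, a zinc finger repressor of the neutrophil lineage, scored 18.6 (16.2 to 21.2) on 225 reads over chr1:92940319-92952433 (hg19, minus strand). Its upstream flank held 0 peaks and its downstream flank 8, the nearest 44.8 kb from the start, with 13.05% of that side covered. EVI5, upstream, scored 40.9 (40.2 to 41.7), and the Poisson intervals of the pair were apart. Downstream, AC104456.2 scored 36.5 (11.9 to 85.2) on 5 reads, not apart from GFI1.

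**Figure D3:**
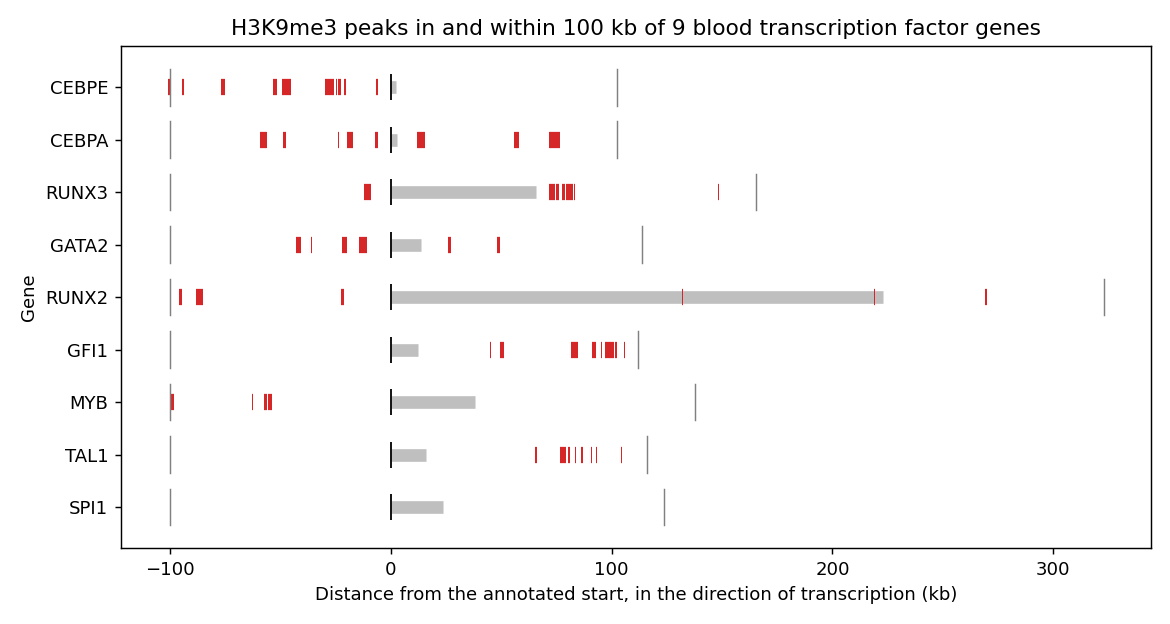
Peaks (red, to scale in width) in and within 100 kb of 9 genes, by distance from the annotated start in the direction of transcription in kb (x axis); grey bars are gene intervals, black ticks starts and thin grey ticks the limits of the 100 kb flanks. Only RUNX2 holds peaks inside its bar; CEBPE, CEBPA, RUNX3 and GATA2 have a peak 10.7 kb or less from the start, and SPI1 has none in view.

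Across the 10 members the 20 flanks of 100 kb held 75 peaks, from 0 at SPI1 to 16 at RUNX1. Over all chromosomes except Y, windows of 100 kb, tiled from first to last peak, had a median of 3 peaks. A total over flanks and a median over windows are unlike measures, so the flanks are not called rich or poor in peaks. Of those windows 20.7% had none. The peaks lay on 1 side alone at MYB and CEBPE (upstream) and at TAL1 and GFI1 (downstream). The share of all genes with peaks on 1 side alone was not computed, so nothing is read from this number of members. Of the 20 gene intervals next to a member, 17 scored higher than the member, 14 of them with Poisson intervals that did not overlap. The 3 that scored lower, CLIC4 by RUNX3, RP11-750H9.5 by SPI1 and STIL by TAL1, did not overlap the member's interval either. Of these 20 intervals 16 were 1 kb or longer, and 13 of those scored higher. Since 9 of the 10 members lay below the median of all symbols, most symbols score higher than most members. No share was computed for the neighbours of other genes with like scores. Neighbours share long domains and the short ones score high in general, so this count describes these loci only.

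Genes related to the 10 factors included some with higher scores than any member. The shares over all symbols are 50% above the median, 36.8% with a peak in the interval and 14.2% with a peak within 1 kb of the start. Of protein-coding symbols 62.5% lie below that median, 43.6% hold a peak and 12.4% have one within 1 kb of the start. The 15 paralogs of the members had a median score of 32.2, with 7 above the all-symbol median and 4 that held a peak. GATA4, a heart and gut factor on chromosome 8, scored 207 (204 to 211) with 69.1% of it in peaks and a peak over its start, and TAL2 scored 96.8 (74.1 to 124) without a peak. The lowest was CEBPB, a factor of macrophages, at 7.62 (4.17 to 12.8). KBM7 cells are known to carry chromosome 8 in an extra copy, scores are not corrected for it, and its part in the values of GATA4 was not tested. None of the 10 members lies on that chromosome. In the erythroid pair of paralogs, GATA1 scored 32.2 (28.4 to 36.5) and GFI1B 51.5 (49.5 to 53.6), each above the 16.1 of GATA2 and the 18.6 of GFI1. These 2 were singled out after their values were seen, and other erythroid genes went both ways. KLF1 scored 184 (168 to 200). NFE2 scored 18.1 (15.4 to 21.1) and ZFPM1, a cofactor of GATA1, 16.8 (15.9 to 17.7), both without a peak.

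Partners and cofactors had mostly low scores. The median score of these 18 genes was 23.8. The score lay below the all-symbol median for 17 of them, against 50% of all symbols and 62.5% of protein-coding symbols. A peak was held by 8, against 36.8% of all symbols and 43.6% of protein-coding symbols. RUNX1T1, the corepressor fused to RUNX1 in acute leukemia and located on chromosome 8, scored 86.4 (84.9 to 87.9) and was alone above that median. TCF4 followed at 37.2 (36.7 to 37.8). CBFB, the partner of the RUNX proteins, scored 16.1 (15.2 to 17.0), and LDB1, the bridging protein of the TAL1 and GATA complex, was lowest at 14.3 (12.3 to 16.5). A peak lay within 1 kb of the start in 1 of the 18, HDAC2.

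The 30 other blood transcription factors had a median score of 35.1. Above the all-symbol median lay 14 of them and below it 16. Below it lie 50% of all symbols and 62.5% of protein-coding symbols. A peak was held by 17, against 36.8% of all symbols and 43.6% of protein-coding ones. Of these 30 genes 17 are 100 kb or longer, a length at which 89% of protein-coding symbols hold a peak. KLF1, the erythroid factor, was highest at 184 (168 to 200), with 70.6% of its 2.78 kb in a peak that lay 817 bp downstream of its start. IKZF3, a lymphoid factor, scored 90.003 (88.2 to 91.8) with 15 peaks, and HOXA9 was lowest at 10.4 (8.18 to 13.0). A peak within 1 kb of the start was listed for 4 of the 30, KLF1, IRF8, HHEX and IKZF1, a share close to the 14.2% of all symbols and 12.4% of protein-coding symbols. The genes of this list are longer than the members, with a median interval of 114 kb against 19.8 kb, and no difference between the lists was tested.

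**Figure D4:**
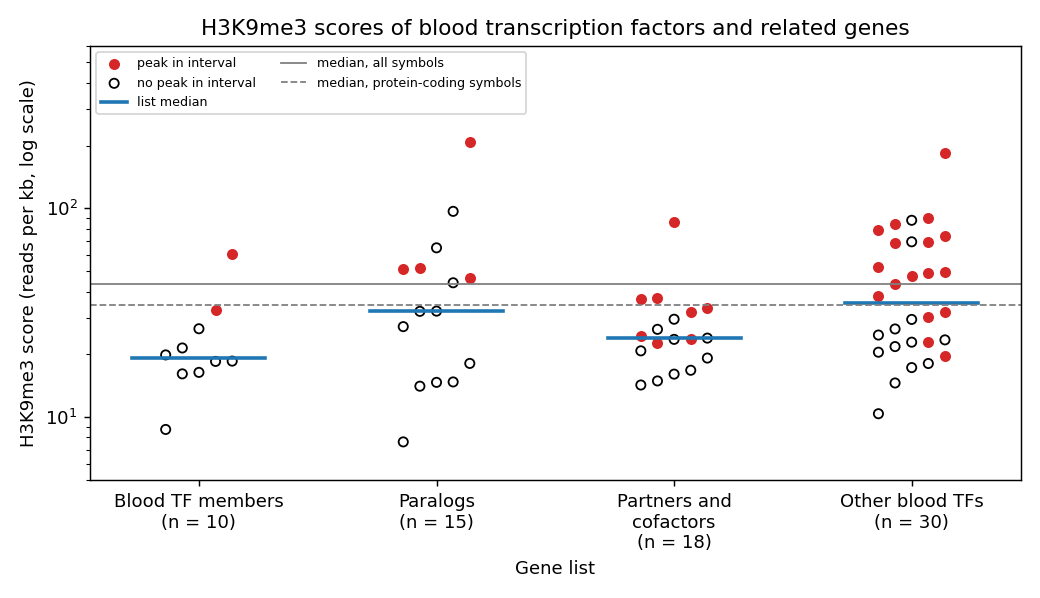
H3K9me3 score in reads per kb on a log axis (y) of each gene in the members and 3 related lists (x). Filled red points have a peak in the interval and open points none, blue bars are list medians (19.2, 32.2, 23.8 and 35.1 from left to right), and grey lines are the medians of all symbols and of protein-coding symbols.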

How the data were processed

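Per the submitters' processing notes, Bowtie2, MACS and the hg19 build were used. Their versions and roles, read filters, peak thresholds, total depth and any use of IgG for the peaks were not given in the sources used here. For each gene interval the authors deposited a raw read count, the interval length in kb and a score. The deposited score is a signal in reads per kb: it equals reads divided by length in every interval (largest difference 3.03e-06) and is not scaled to depth or corrected for IgG or copy number. The reads of the 40237 intervals sum to 78512210, with reads in overlapping intervals counted repeatedly. The deposited peak list gives chromosome, start and end, and all 126965 peaks lie on a 150 bp grid.

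A symbol with several intervals was represented by its highest score, and mitochondrial symbols were left out. Peaks were assigned with an overlap of 1 bp or more, and start sites are the strand-aware interval ends. Poisson intervals are exact at 95% and cover counting error only. Gene types, for 22179 symbols, came from RefSeq on GRCh38.p14. With 1 library no test was made. The rule for named genes took all members, the 2 highest and the lowest of each related list, overlapping intervals and the next gene on each side; others were chosen after their values were seen. Members and lists were chosen with earlier results of these data known. Overlap and interval code was tested on simulated data. Alternatives changed the overlap, peak width, windows, reference median and genes left out. The work was done in Python 3.11.15 with scipy 1.17.1, pandas 2.3.3, numpy 2.4.6 and matplotlib 3.10.9.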

Additional observations from a re-analysis of the deposited data

How the results depend on the processing

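Of 26 alternatives over 10 results, 17 left the value within 1.5 times of that reported and 9 moved it further. Without RUNX1, 0 members lay above the median of all symbols, 1 held a peak (an alternative added after the data were seen) and pooled peak cover of the members was 0.227% in place of 8.41%. Pooled cover over all symbols was 6.14%. The mean cover per gene, with RUNX1, was 1.15% over the members, 8.10% over all symbols and 7.27% over protein-coding symbols. With peaks of 900 bp or wider, 1 member in place of 2 held a peak, RUNX2 dropping out. Within 5 kb in place of 1 kb, 1 member had a peak by its annotated start, RUNX1, where that start lies outside the gene in RefSeq. In windows of 50 kb, 20.8% of RUNX1 windows (5 of 24) held no peak, against 8.33% in windows of 100 kb. Flanks of 50 kb held 40 peaks in place of 75. Without chromosome 8 and 60 to 90 Mb of chromosome 15, 0 partners lay above the median, and against the median of protein-coding symbols 3 did. The most significant peaks could not be selected, since no significance was used here. No paired analysis was possible because there is 1 library and no comparison between samples. A gene of few reads such as CEBPA, with 23, is limited by counting error, and mappability was not used here.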

Other observations

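Long genes among the other blood transcription factors differed in how many peaks they held, a comparison chosen after the data were seen. Of 17 such genes of 100 kb or more, 12 held a peak, compared with 89% of protein-coding symbols of that length. BACH2, a transcriptional repressor that acts in B and T cells, held 43 peaks over 370 kb that covered 13.0% of it. Its score was 69.4 (68.5 to 70.2). LEF1, a factor of Wnt signalling in lymphocytes, held 13 over 121 kb, with the same 13.0% covered. NFIA held 22 over 598 kb, but these covered 2.79%. The 5 without a peak were IKZF1, FLI1, MEIS1, ZEB2 and BCL11A, with scores from 20.5 (19.6 to 21.4) at BCL11A to 29.4 (28.5 to 30.4) at FLI1. ERG, on chromosome 21 like RUNX1, held 8 peaks over 282 kb with 2.98% covered and scored 38.3 (37.5 to 39.0).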
